A study of Homo sapiens with 2 samples.

Results

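The genes described here were the 7 intermediate filament genes NEFL, NEFM, NEFH, INA, PRPH, VIM and NES, read from their Ensembl identifiers among the 33538 genes of the count matrix. They fall into 5 neuronal filament genes (NEFL, NEFM, NEFH, INA and PRPH) and the pair VIM and NES. Levels, detection in the same cells at equal depth and the relation to the cell cycle were compared between these sets within each flask.

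The cells were SH-SY5Y (SY5Y), a human neuroblastoma line subcloned from a neuroblast-like clone of SK-N-SH. Unsynchronized cells of 1 culture were grown in 2 flasks, SplitA and SplitB, both untreated, so the flasks differ in no condition. The cells of each flask carried their own hashtag antibody and were pooled into 1 CITE-seq experiment with an mRNA library and a hashtag library that share their cell barcodes, 2879 in all. A cell was assigned to a flask where 1 hashtag had at least 3 times the counts of the other and the other had at most 185 counts, and 1000 genes with a UMI (unique molecular identifier, 1 captured mRNA molecule) were required. This left 899 of 1179 SplitA cells and 1195 of 1605 SplitB cells, while 95 cells were multiplets. The flasks came from the same culture and went through the same library, so the spread between them may be technical.

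Intermediate filaments are cytoskeletal polymers built from cell-type-specific subunits. Mature axons hold the light, medium and heavy neurofilament chains (NEFL, NEFM and NEFH) together with alpha-internexin (INA), and neurons of the peripheral nervous system, the lineage from which neuroblastoma arises, add peripherin (PRPH). Vimentin (VIM) is the filament of mesenchymal and many cultured or immature cells, and nestin (NES), which polymerizes with partners such as vimentin, is a classical mark of neural progenitors.

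Below are RefSeq windows for the 3 genes called in the edgeR phase test described further on, of which DESeq2 called only VIM. They run from 250 bases before to 50 bases after the annotated gene start (GRCh38.p14, 5′ to 3′ on the strand of the gene). Capitals mark matches on either strand to 6 motifs, which were the TATA box (TATAAA), the GC box (GGGCGG), the CCAAT box (CCAAT), the cell cycle homology region or CHR (TTTGAA) and 2 E2F motifs (TTTCGCGC and TTTGGCGC).
VIM (chr10:17227991-17228290, plus): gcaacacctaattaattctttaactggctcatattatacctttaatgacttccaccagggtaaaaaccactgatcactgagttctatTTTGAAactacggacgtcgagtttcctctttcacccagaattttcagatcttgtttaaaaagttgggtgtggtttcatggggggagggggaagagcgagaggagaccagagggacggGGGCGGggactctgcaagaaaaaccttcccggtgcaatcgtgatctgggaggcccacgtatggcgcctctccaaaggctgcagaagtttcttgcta
PRPH (chr12:49294897-49295196, plus): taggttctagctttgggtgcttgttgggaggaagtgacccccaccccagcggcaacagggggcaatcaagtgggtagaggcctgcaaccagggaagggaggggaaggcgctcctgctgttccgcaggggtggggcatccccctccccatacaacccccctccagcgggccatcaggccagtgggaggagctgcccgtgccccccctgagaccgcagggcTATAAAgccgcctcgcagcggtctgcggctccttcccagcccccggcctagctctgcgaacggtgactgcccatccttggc
NES (chr1:156677358-156677657, minus): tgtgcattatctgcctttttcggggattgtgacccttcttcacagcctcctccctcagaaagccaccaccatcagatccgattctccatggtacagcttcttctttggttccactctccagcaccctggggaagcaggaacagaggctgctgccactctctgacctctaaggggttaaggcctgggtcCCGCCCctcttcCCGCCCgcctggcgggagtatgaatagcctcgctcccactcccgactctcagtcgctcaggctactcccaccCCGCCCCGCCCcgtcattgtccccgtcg

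The VIM window held 1 GC box, at -46 from the gene start, and 1 CHR match, at -163. The PRPH window held a TATA box at -31, and the NES window held 4 GC boxes, of which the pair at 23 and 28 overlap by 1 base. Over 27195 RefSeq promoters of the same length, 11.97% held the TATA box, 44.7% the GC box, 35.7% the CCAAT box and 15.4% the CHR letters, while the E2F motifs were in 0.548% and 0.662%. These matches describe letters only, and for VIM 8 of 10 annotated transcripts and for PRPH 4 of 6 start over 500 bases downstream of the gene start, outside these windows.

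The genes lie on 5 chromosomes of GRCh38 in GENCODE release 44, where all 7 are protein-coding. NEFL (chr8:24950955-24956721, minus strand) and NEFM (chr8:24913758-24919098, plus strand) are neighbours 31856 bases apart. NEFH is at chr22:29480218-29491390 (plus), PRPH at chr12:49295147-49298686 (plus) and NES at chr1:156668763-156677407 (minus). INA (chr10:103277138-103290346) and VIM (chr10:17228241-17237593) are both on the plus strand of chromosome 10. Genes of the opposite strand overlap every member except NES. The largest of these in the kept cells was NT5C2 with 148 UMIs, against 826 for INA, and VIM-AS1 had 6 UMIs against 1777 for VIM. Whether the counting used strand is not given in the sources used here.

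The kept cells held 5852780 UMIs in SplitA and 8066440 in SplitB, with a median per cell of 6063 (range 1948 to 27205) and 6346 (1801 to 27006). Of 10 adrenergic neuroblast markers, 8 were at or above 10 CPM (UMIs per 1000000 UMIs of the flask), and the list summed to 2703 CPM in SplitA and 2616 CPM in SplitB, although TH, tyrosine hydroxylase, was at 1.54 and 1.12 CPM. Of 10 mesenchymal neuroblastoma markers, 2 reached 10 CPM, TWIST1 and PDGFRB, PRRX1 was at 0 UMIs, and the sum was 197 and 195 CPM. Of 5 Schwann and glia genes none reached 10 CPM, and the Schwann cell regulator SOX10 was at 0 UMIs. Of 5 fibroblast genes, COL1A2 and DCN were at 0 UMIs, but THY1 was at 42.5 and 43.3 CPM. The fibroblast list summed to 49.2 CPM in SplitA and 52.2 CPM in SplitB. No cell type that should lack filament genes was in the culture, so the level that free RNA gives could not be read from these cells.

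VIM was the highest of the 7 genes in both flasks and NEFH the lowest. VIM was at 110.7 CPM in SplitA (exact Poisson 95% interval 102.4 to 119.6) and 140.0 CPM in SplitB (131.9 to 148.4), higher than 94.6% and 95.7% of the 17881 genes with a UMI in a kept cell. NES was at 77.7 CPM in SplitA (70.8 to 85.2) and 81.6 CPM in SplitB (75.5 to 88.1).

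Among the neuronal filaments, INA led with 57.6 CPM (51.6 to 64.1) and 60.6 CPM (55.4 to 66.2). NEFL followed with 37.1 CPM (32.3 to 42.4) and 31.1 CPM (27.4 to 35.2), and NEFM with 15.4 CPM (12.4 to 18.9) and 17.9 CPM (15.1 to 21.02). The light chain was thus above the medium chain, and both were far above the heavy chain. PRPH was at 7.52 CPM (5.46 to 10.1) and 5.21 CPM (3.75 to 7.04), and NEFH at 2.22 CPM (1.18 to 3.798) and 2.73 CPM (1.71 to 4.13), from 35 UMIs in all. The order of the 7 genes was the same in SplitA and SplitB. The Poisson intervals of neighbours in this order were apart in both flasks, except those of PRPH and NEFH in SplitB, which overlapped. The 5 neuronal filament genes together reached 119.8 CPM in SplitA and 117.5 CPM in SplitB. Their log2 ratio to VIM was 0.11 in SplitA and -0.25 in SplitB, so the summed neuronal filaments lay slightly above VIM in SplitA and below it in SplitB.

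**Figure D1:**
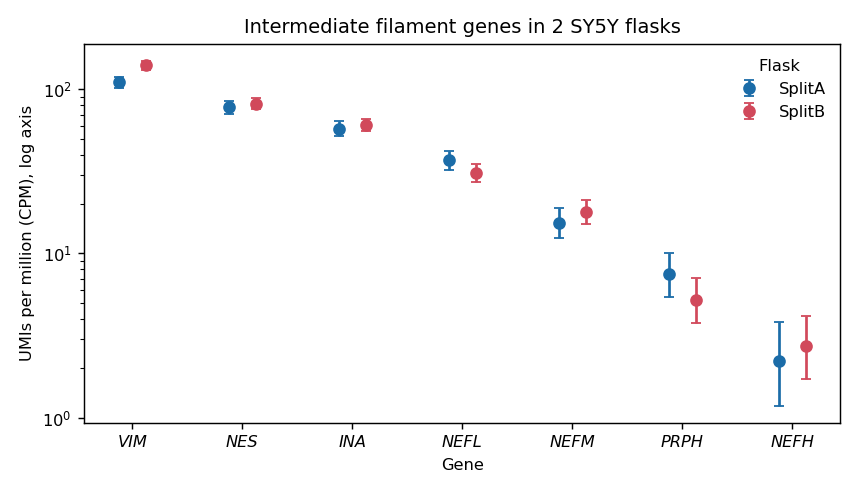
Level of each gene in CPM (UMIs per 1000000, log axis) in SplitA and SplitB, with bars for exact Poisson 95% intervals. VIM stands highest at 110.7 and 140.0 CPM, and NEFH lowest at 2.22 and 2.73 CPM.

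In this assay each captured molecule gives 1 UMI whatever the length of the transcript, and dividing by the longest annotated transcript changes the order at 1 place. Per kilobase, VIM was at 41.5 and 52.5 CPM per kb, INA at 17.7 and 18.6, and NES, with the longest transcript of the 7 (5568 bases), at 14.0 and 14.7. INA thereby moved above NES, while NEFL (10.3 and 8.68 CPM per kb), NEFM (4.70 and 5.46), PRPH (4.18 and 2.89) and NEFH (0.585 and 0.719) kept their places.

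Between the flasks, VIM was 1.26-fold higher in SplitB, and PRPH in SplitB was at 0.693 of its SplitA level. These 2 of the 7 genes passed the size used for calls, an absolute log2 ratio of at least 0.32, as did 20.9% of 12289 genes with at least 20 UMIs (11.5% higher and 9.36% lower in SplitB). The Poisson intervals of VIM did not overlap between flasks, whereas those of PRPH, from 44 and 42 UMIs, did. For the other 5 genes the ratio of SplitB to SplitA ran from 0.839 (NEFL) to 1.23 (NEFH). With 1 flask against 1 flask there is no test.

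Detection was compared with every cell thinned at random to 2000 UMIs, which left out 1 SplitA and 2 SplitB cells. VIM was then found in 15.9% of SplitA cells (exact binomial 95% interval 13.6% to 18.5%) and 20.03% of SplitB cells (17.8% to 22.4%), and NES in 14.3% and 14.4%. INA was found in 10.6% and 11.5% of cells, NEFL in 7.35% and 5.28%, NEFM in 2.45% and 3.69%, PRPH in 1.45% and 1.51% and NEFH in 0.334% and 0.419%. At least 1 of the 5 neuronal filament genes was detected in 20.3% of SplitA cells and 20.6% of SplitB cells, above the share for VIM alone in SplitA and close to it in SplitB. At full depth the shares were higher, at 36.5% and 40.8% for VIM, 35.9% and 38.0% for NES and 46.8% and 48.1% for any neuronal filament. At 2000 UMIs 57.7% of SplitA cells and 54.5% of SplitB cells held no UMI of any of the 7 genes, which at this depth does not show that the genes were silent there.

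VIM was spread more unevenly over cells than the other members. At 2000 UMIs its variance was 1.52 times its mean in SplitA and 1.44 times in SplitB, where counting alone at a fixed depth gives a ratio close to 1. That placed it above 96.9% and 96.1% of the 4007 and 3997 genes with a mean of at least 0.05 UMIs, whose median ratio was 1.03 in each flask. NES had ratios of 1.02 and 1.13, INA 1.01 and 1.09, and NEFL 0.956 and 0.978. In SplitA NES and INA were above 41.4% and 36.2% of the genes and NEFL above 9.21%, and in SplitB above 86.0%, 79.2% and 13.9%. At full depth, 24 SplitA cells (2.67%) had 5 or more VIM UMIs and carried 22.4% of all VIM UMIs of the flask, and 62 SplitB cells (5.19%) carried 35.7%. A single cell held up to 11 VIM UMIs in SplitA and 16 in SplitB, against a highest NES count of 4 and 5.

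**Figure D2:**
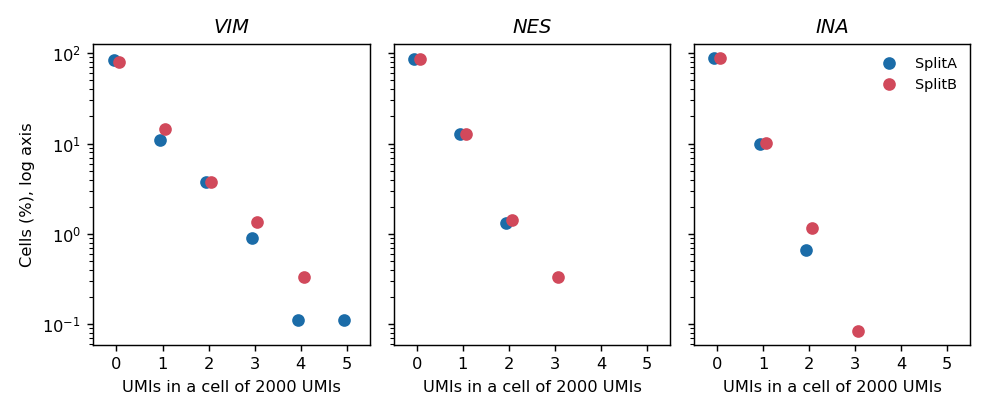
Share of cells (%, log axis) by number of UMIs of VIM, NES or INA after thinning every cell to 2000 UMIs, one colour per flask, with empty classes not drawn. VIM reaches 5 UMIs in SplitA and 4 in SplitB, while NES and INA stop at 2 in SplitA and 3 in SplitB.

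Cells with a neuronal filament UMI carried VIM about as often as cells without one. At 2000 UMIs, VIM was found in 15.9% of the 182 SplitA cells with a neuronal filament UMI (10.9% to 22.1%) and in 15.9% of the 716 without (13.3% to 18.8%). In SplitB the shares were 17.5% of 246 cells (12.9% to 22.8%) and 20.7% of 947 cells (18.2% to 23.4%). The intervals overlapped in both flasks, and the difference was 0.0123 percentage points in SplitA and -3.22 in SplitB. NES was found in 15.4% of SplitA cells with a neuronal filament UMI (10.5% to 21.5%) against 14.0% without (11.5% to 16.7%), and in 15.4% (11.2% to 20.6%) against 14.1% (11.99% to 16.5%) of SplitB cells. Intervals of this width would hold differences of several percentage points in either direction. The NES difference, a mean of 1.36 points over flasks, was 6.04 points with another thinning seed.

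VIM and NES, the pair that can share filaments, showed no common direction in the flasks over all phases. VIM was detected in 13.3% of NES-positive against 16.4% of NES-negative cells in SplitA, and in 23.8% against 19.4% in SplitB. Of all 21 pairs among the 7 genes, 4 were detected together more often than the product of their separate shares in both flasks, and 7 less often in both. The latter include NEFH with NEFL, NEFM, PRPH and VIM, with 0 joint cells in either flask. There the product was at most 0.0840% of cells, so joint cells could hardly be seen. Of the former, NEFH with NES and PRPH with NES had at most 3 joint cells in a flask. The others below were INA with VIM (0.859 of the product in SplitA and 0.838 in SplitB), NEFL with VIM (0.951 and 0.872) and NEFM with NES (0.319 and 0.473). The others above were NEFL with INA (1.15 and 1.24) and NEFL with NES (1.28 and 1.87). The counts of 4 and 7 alone were not read as a lean in either direction. For no pair was the product of shares outside the binomial interval of the joint share in both flasks, and for 2 pairs it was outside in 1 flask. These were NEFH with NES in SplitA, on 3 cells with both, and NEFL with NES in SplitB, where NES was in 27.0% of 63 NEFL-positive cells (16.6% to 39.7%) against 13.7% of the others (11.8% to 15.9%), while in SplitA the shares were 18.2% (9.76% to 29.6%) and 13.9% (11.7% to 16.5%). These pairs were named after their values were seen. Within G1 cells the difference for VIM by neuronal filament detection was 6.35 points in SplitA and -7.12 in SplitB, of opposite sign. Within S cells it was -7.81 and -1.61 points, and within G2M cells -1.14 and 0.586. For VIM by NES detection the difference within S cells was 8.25 points in SplitA and 7.37 in SplitB, with overlapping intervals. It was -6.87 and 7.51 points within G1 cells and -7.72 and 3.54 within G2M cells.

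**Figure D3:**
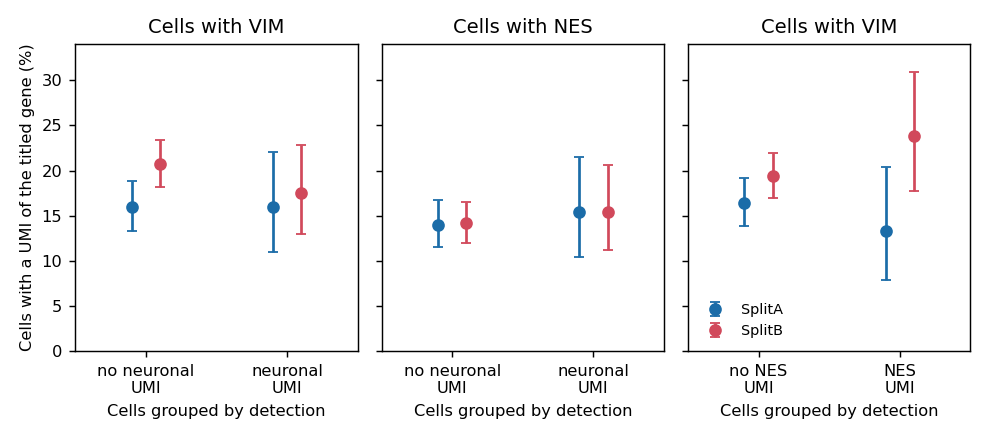
Share of cells (%) with a VIM or NES UMI among cells without and with a UMI of any neuronal filament gene (left and middle) or of NES (right), at 2000 UMIs per cell, with exact binomial 95% intervals and one colour per flask. The intervals of cells with and without the UMI overlap in each panel and flask.

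Each cell was assigned to G1, S or G2M by Seurat scores over 42 S and 52 G2M genes, none of which is a filament gene. G1 is the class left for cells in which neither score is positive, so non-cycling cells are not told apart from it. The paper sets its G1 cells against actively dividing cells in G2M and S. G1 took 41.0% of SplitA and 42.3% of SplitB cells, S 30.7% and 29.1%, and G2M 28.3% and 28.6%. G2M cells held more UMIs, with a median of 7078 and 6969, against 5830 and 6130 in G1 and 5793 and 6091 in S. Outside the score list, the cyclins CCNB1 and CCNA2, the securin PTTG1 and the histone H4C3 were all higher in S than in G1, in G2M than in G1 and in G2M than in S (4 of 4 called in each). CCNB1, the mitotic cyclin, went from 6.45 CPM in G1 to 80.7 CPM in G2M cells of SplitA and from 5.04 to 93.1 CPM in SplitB. H4C3 was at 3296 CPM in S and 4065 CPM in G2M of SplitA, and at 3344 and 4271 CPM in SplitB. None of the 4 genes was highest in S, so no gene of this check marks S apart from G2M. UMIs were then summed per flask and phase into 6 profiles and tested with edgeR, with the flask as a block, over 10521 genes. The profiles leave 2 residual degrees of freedom, and edgeR combines the spread of each gene with a spread shared over all genes tested. The smallest p-values rest on this shared spread more than on the difference between the 2 flasks for the gene itself. Adjusted p-values are Benjamini-Hochberg values over all genes tested. The contrasts S minus G1 and G2M minus G1 share the G1 profiles.

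VIM was the member with the highest level in G1 and fell in both other phases. In SplitA it was at 159.6 CPM in G1 (143.8 to 176.7), 87.4 CPM in S (73.8 to 102.8) and 70.5 CPM in G2M (58.9 to 83.6). In SplitB it was at 187.3 CPM (173.0 to 202.5), 99.8 CPM (87.2 to 113.8) and 111.5 CPM (98.7 to 125.6). The G1 levels of both flasks lay above every S and G2M level. The edgeR log2 fold change from G1 to S was -0.98 (SE 0.094, adjusted p = 4.8e-14), a fold of 0.507. From G1 to G2M it was -1.03 (SE 0.092, adjusted p = 1.12e-15), a fold of 0.491. By DESeq2 the changes were -0.99 (SE 0.17, adjusted p = 5.3e-07) and -1.08 (SE 0.17, adjusted p = 1.2e-08), with larger SEs. At 2000 UMIs per cell, VIM was found in 22.0% of G1, 10.2% of S and 13.4% of G2M cells of SplitA and in 26.6%, 14.9% and 15.5% of those of SplitB.

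PRPH, the peripheral neuron filament, also fell outside G1, on far fewer UMIs. It was at 12.9 CPM in G1, 4.79 CPM in S and 3.23 CPM in G2M in SplitA (30, 8 and 6 UMIs), and at 8.002, 2.67 and 3.68 CPM in SplitB (27, 6 and 9 UMIs). Both flasks were highest in G1. The log2 fold change was -1.57 (SE 0.41, adjusted p = 0.0025) in S and -1.64 (SE 0.40, adjusted p = 0.00072) in G2M by edgeR. DESeq2 on the same profiles gave -1.60 with an adjusted p of 0.27 in S, and in G2M a change of -1.67 with no adjusted p.

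NES moved the other way and rose outside G1. In SplitA it was at 59.4 CPM in G1 (49.9 to 70.2), 95.2 CPM in S (81.0 to 111.2) and 85.0 CPM in G2M (72.3 to 99.3). In SplitB the levels were 69.1 CPM (60.5 to 78.5), 92.2 CPM (80.1 to 105.7) and 89.1 CPM (77.6 to 101.7). In both flasks G1 was the lowest phase. The edgeR log2 fold change was 0.44 (SE 0.11, adjusted p = 0.0024) in S and 0.31 (SE 0.11, adjusted p = 0.031) in G2M, while by DESeq2 the changes were 0.44 and 0.29 with adjusted p-values of 0.23 and 0.45. In SplitA alone the log2 ratio of CPM, without the normalization factors of the fit, was 0.68 in S and 0.52 in G2M. In SplitB alone it was 0.42 and 0.37. At 2000 UMIs NES was found in 10.3% of G1, 17.1% of S and 16.9% of G2M cells of SplitA and in 10.1%, 19.3% and 15.8% of those of SplitB.

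INA, NEFL and NEFM passed the test in none of the contrasts. INA ran between 53.9 and 65.1 CPM in SplitA and between 56.8 and 64.2 CPM in SplitB, with a log2 change from G1 of -0.05 in S (95% interval -0.31 to 0.21) and -0.06 in G2M (-0.31 to 0.18). NEFL was at 40.4 CPM in G1, 35.9 CPM in S and 33.9 CPM in G2M in SplitA and at 32.6, 29.4 and 30.6 CPM in SplitB, with log2 changes of -0.25 (-0.57 to 0.07) and -0.29 (-0.60 to 0.03). NEFM was at 10.3, 17.4 and 19.9 CPM in SplitA and 15.4, 20.1 and 19.2 CPM in SplitB, lowest in G1 in both flasks, with log2 changes of 0.42 (-0.05 to 0.89) and 0.44 (-0.02 to 0.89). The NEFM intervals take in changes as large as that of NES as well as no change, so a change of that size was neither shown nor excluded. The log2 ratio of CPM of NEFM was 0.75 in S and 0.95 in G2M in SplitA alone, and 0.38 and 0.32 in SplitB alone. That of INA in G2M was 0.26 in SplitA and -0.10 in SplitB. Ratios of CPM lack the normalization factors of the edgeR fit, so they cannot be set against its intervals. NEFH, with 4 to 10 UMIs per profile, did not pass the filter on low counts.

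Of the 6 members tested, 2 fell and 1 rose from G1 to S, where 9.42% and 10.5% of all genes tested were lower and higher, and 20% in all. From G1 to G2M the same 3 genes were called in the same directions, beside 15.1% lower and 15.2% higher genes of a total of 30.3%. From S to G2M 0 of 6 were called by edgeR and 0 had an unadjusted p under 0.05, beside 7.45% of all genes (3.77% higher and 3.68% lower), and DESeq2 called 0 as well. The 95% interval of the log2 change from S to G2M was -0.27 to 0.17 for VIM and -0.35 to 0.09 for NES.

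**Figure D4:**
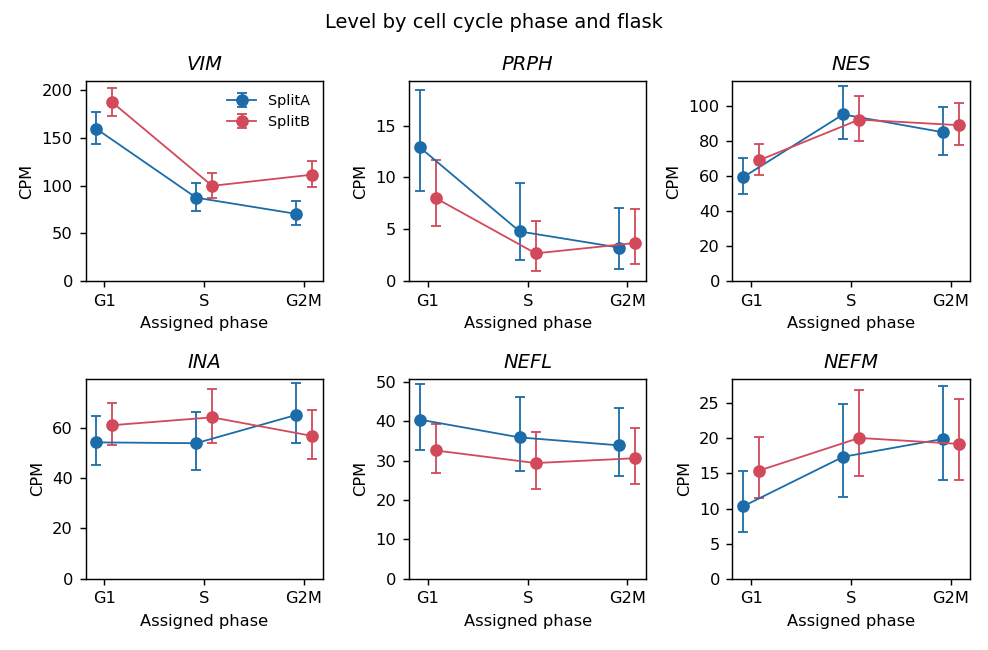
Level in CPM of 6 filament genes in cells assigned to G1, S and G2M, one colour per flask, with exact Poisson 95% intervals and a separate axis from 0 for each gene. VIM and PRPH are highest in G1 and NES lowest in G1 in both flasks.

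**Figure D5:**
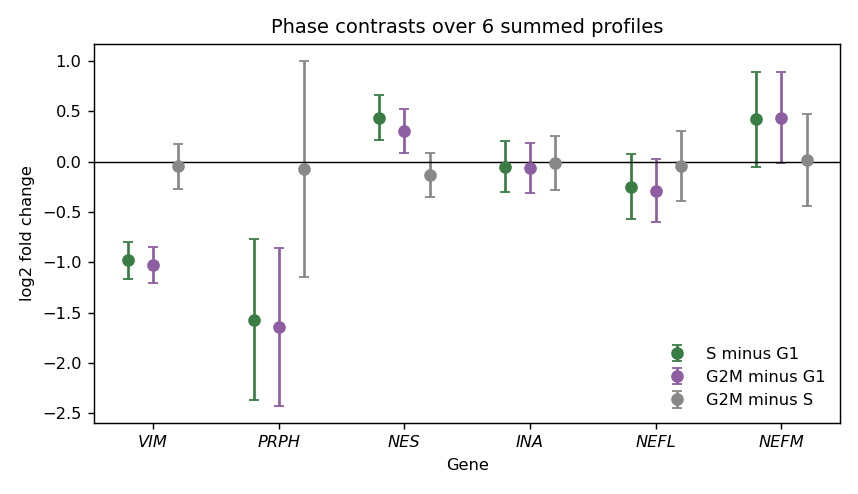
edgeR log2 fold change of 6 filament genes for the 3 phase contrasts, with bars for 95% intervals (normal, from the SE). VIM lies at -0.98 and -1.03 against G1, NES at 0.44 and 0.31, and each G2M minus S interval includes 0.

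The balance of VIM against the other filaments differed by phase, while the neuronal filaments as a sum stayed between 113.2 and 124.3 CPM. The 5 neuronal genes together were at 119.6, 115.0 and 124.3 CPM in G1, S and G2M of SplitA and at 120.0, 118.5 and 113.2 CPM in SplitB. VIM made up 57.2% of the VIM and neuronal filament UMIs in G1 cells of SplitA (exact binomial interval 53.3% to 61.0%), then 43.2% (37.8% to 48.7%) of those in S cells and 36.2% (31.2% to 41.4%) of those in G2M cells. The same shares of SplitB were 60.9% (57.9% to 63.9%), 45.7% (41.2% to 50.2%) and 49.6% (45.4% to 53.9%). Against NES alone, VIM made up 72.9% of the UMIs of the pair in G1 of SplitA, 47.9% in S and 45.3% in G2M, and 73.1%, 52.0% and 55.6% in SplitB. The interval of the G1 share did not overlap that of the S or G2M share in either flask. These intervals treat every UMI as independent, whereas VIM UMIs were gathered in some cells, so they are likely too narrow.

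Some genes of the cell identity lists differed between phases as well. Of the 8 adrenergic neuroblast genes tested, 6 were lower and 2 higher in S than in G1, beside 9.42% and 10.5% of all genes tested. In G2M 5 were lower and 1 higher than in G1, beside 15.1% and 15.2%. Of the 4 mesenchymal neuroblastoma genes tested 0 were called in S by edgeR, 0 had an unadjusted p under 0.05 there, and 1, TWIST1, was higher in G2M (log2 change 0.39). The other mesenchymal genes, SNAI2, PDGFRB and NOTCH2, had 102, 188 and 92 UMIs, against 855 or more for each adrenergic gene tested. The 2 lists thus differ in depth as well. Of the Schwann and fibroblast genes tested, COL3A1 (4.10 and 5.58 CPM) fell in S and S100B (4.44 and 3.47 CPM) fell in G2M. The part of these shifts, or of the higher UMI count of G2M cells, in the filament results was not tested. With cells thinned to 2000 UMIs the fit called VIM in both contrasts and NES in G2M (adjusted p = 0.023) but not in S (adjusted p = 0.090), and PRPH could not be tested. For that fit the phases were scored anew on the thinned counts, and 83.5% of cells kept their phase. The shares of cells by phase at 2000 UMIs given above use the phases of the full counts.

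A list of 41 other filament genes, lamins, cross-linkers, kinases, motors and chaperones gave the surroundings of the 7 genes. Among its filament genes, keratin 10 (KRT10) was at 137.4 CPM in SplitA and 129.2 CPM in SplitB, above VIM in SplitA and below it in SplitB. KRT19 was at 9.91 and 14.6 CPM, SYNC at 13.7 and 13.9, SYNM at 4.44 and 3.84 and KRT7 at 2.22 and 2.60. KRT18 and DES had at most 2 UMIs. Keratin 8 (KRT8), GFAP of glia, the lens filaments BFSP1 and BFSP2 and the desmosomal DSP were at 0 UMIs. Of the genes with UMIs, 29 could be tested outside the score list, which holds CDK1 and AURKB. From G1 to S 3 of them rose and 2 fell, with a median log2 change of 0.01 against 0.00 over all genes. The 5 called of 29 are no larger a share than the 20% of all genes. The B-type nuclear lamins LMNB1 and LMNB2 rose by 2.50 (SE 0.26, adjusted p = 8.9e-13) and 1.05 (SE 0.19, adjusted p = 8.4e-06), whereas the A-type lamin gene LMNA fell by 0.52 (SE 0.11, adjusted p = 8.2e-05). The kinesin heavy chain KIF5C rose by 0.50, and the small heat shock protein gene HSPB1, the most abundant of those called at 730 and 732 CPM, fell by 0.53 (SE 0.042, adjusted p = 6.9e-18).

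From G1 to G2M 9 genes of the list rose and 3 fell, with a median of 0.12 against 0.03, beside 30.3% called over all genes. The mitotic kinase PLK1 rose by 4.17, LMNB1 by 2.79, LMNB2 by 1.68, the spectraplakin MACF1 by 1.05 and the kinase ROCK2 by 0.78 on the log2 scale. The others that rose were KIF5B by 0.58, DST by 0.51, TRIM2 by 0.50 and KIF5C by 0.45. HSPB1 fell by 0.74, and LMNA and CDK5, a neurofilament kinase, fell by 0.31 and 0.50. From S to G2M 5 rose and 1 fell, beside 7.45% of all genes, among them PLK1 by 3.39 and MACF1 by 0.94, and HSPB1 fell by 0.20. Lamins of the A and B types thus went opposite ways from G1, as did VIM and NES among the cytoplasmic filaments.

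The genes most like a member over cells were named by the mean over flasks of Pearson's r of log2(UMI + 1) at 2000 UMIs, among 1855 genes found in at least 10% of cells of both flasks (898 SplitA and 1193 SplitB cells). For VIM they were DLK1, a non-canonical Notch ligand (r = 0.211 in SplitA and 0.235 in SplitB), GNAS, the stimulatory G protein subunit (0.230 and 0.190), and GAL, the neuropeptide galanin (0.225 and 0.168). DLK1 averaged 8.43 UMIs in SplitA cells with a VIM UMI and 4.55 in those without, and 8.58 and 4.67 in SplitB. GAL averaged 5.09 and 1.67 UMIs in SplitA and 3.59 and 2.02 in SplitB. GNAS averaged 6.28 and 3.37 UMIs in SplitA and 4.97 and 3.31 in SplitB. Among G1 cells alone, DLK1 averaged 10.9 UMIs with VIM and 6.39 without in SplitA, and 11.01 and 6.95 in SplitB. In the same G1 cells GNAS averaged 8.19 and 4.86 in SplitA and 5.96 and 4.99 in SplitB. GAL averaged 7.06 and 2.27 there in SplitA and 4.63 and 2.81 in SplitB. Cells without VIM thus held more of each gene in G1 than over all phases. Since these genes were picked for their r with VIM in the same cells, the differences by VIM restate the choice. The part of phase in these r values was not tested. Without SplitA or by ranks, LGALS1 took the place of GAL, and without SplitB CHGB took that of DLK1.

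For NES the nearest genes were CCND1, cyclin D1 (r = 0.0811 in SplitA and 0.131 in SplitB), NSG2, a vesicle protein of neurons (0.147 and 0.0478), and TUBB, a beta-tubulin (0.0712 and 0.122). For INA the highest mean r was 0.0784, with MRPS34. Values as weak as those for NES and INA set no gene apart in sparse counts. Each r is over cells of 1 library that share depth, and carries no test.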

How the data were processed

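The authors mapped the reads to hg38/GRCh38 with STAR 2.7, counted UMIs per gene and cell with Cell Ranger 4.0.0 and deposited the counts as whole numbers, without normalization, for 33538 genes and 2 hashtags. The gene annotation used for counting is not given in the sources used here. Symbols were matched by Ensembl identifier for 33113 genes, the 7 filament genes among them. Hashtag counts, 17.0% of all counts in the kept cells, served for assignment only and stayed out of library sizes. The hashtag limits follow the supplementary code of the study, and its filter on mitochondrial share was an alternative. The members and lists were chosen with earlier results of these data known.

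Levels are UMIs summed per flask over all gene UMIs (CPM), with exact Poisson 95% intervals, and shares of cells have exact Clopper-Pearson 95% intervals, both covering counting error only. Cells are not replicates, so no test was run over cells. Phases came from Seurat 5.3.0 with its original cell cycle list. The 6 sums were fitted with edgeR 4.0.16 (TMM, filterByExpr, glmQLFit, glmQLFTest) in R 4.3.3, with an adjusted p under 0.05 as the call, and with DESeq2 1.42.0 as an alternative. On simulated counts of 10429 genes for S minus G1, 61.1% of 95 genes changed 2-fold, 28% of 100 changed 1.5-fold and 0 of 10234 unchanged genes were called. These counts had the common dispersion of the fit, 0.000346, for every gene and no difference between flasks. They therefore do not measure false calls in the real profiles. Flask serves as the block because every phase was measured in cells of both flasks. Intervals came from scipy 1.17.1, tables from pandas 2.3.3 and numpy 2.4.6 under Python 3.11.15, and plots from matplotlib 3.10.9. Named genes are the 7 members, the 3 genes most like each member found in at least 10% of thinned cells, the 4 cycle checks and the marker genes. Of the partner list they are every gene called outside the score list from G1 to S and from G1 to G2M, and some of those called from S to G2M. Filament genes of that list and its genes at 0 UMIs are also named by their level. Alternatives concerned the cell filters, the hashtag limit, depth and seed of thinning, transcript length, the phase list, the fit and leaving out each flask. RefSeq promoters matched 4 of the 7 genes. Multiplets were left out by their hashtags, and no other doublet caller was run. Some named genes are not reported here.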

Additional observations from a re-analysis of the deposited data

Results flagged for a closer look

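VIM UMIs were also present in cells outside the comparisons of the report, of which the singlets under 1000 genes entered only through the alternative minimum of 300 genes. The 73 multiplets with at least 1000 genes held VIM at 95.2 CPM (exact Poisson interval 71.7 to 123.9) and NES at 95.2 CPM, and the 690 hashtag singlets under 1000 genes held VIM at 111.5 CPM (91.6 to 134.4) and NES at 122.6 CPM (101.8 to 146.5). The latter cells had a median of 1407 UMIs and a median mitochondrial share of 35.0%.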

How the results depend on the processing

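The fall of VIM from G1 to S and to G2M was called in each of the 10 alternative fits, with log2 changes of -1.17 to -0.94 and -1.10 to -0.94, and the rise of NES in 8 of 10 and 7 of 10. NES lost its call with DESeq2 in both contrasts (log2 changes 0.44 and 0.29), with thinned cells in S (0.50, adjusted p = 0.090), and in G2M without a filter on low counts (0.062) or with a minimum of 300 genes (0.11). PRPH was called in 8 of 9 fits in each contrast, not by DESeq2, and with thinned cells it had too few UMIs to be tested. INA, NEFL and NEFM were called in 0 of 10 fits in both contrasts. The log2 change of NEFM ran from -0.40 to 0.52 in S and from -0.30 to 0.52 in G2M, so its sign was not stable. That of NEFL ran from -0.37 to -0.13 and from -0.31 to 0.33, and that of INA from -0.41 to 0.04 and from -0.15 to 0.03. Without the flask as a block the counts of genes called were 2076, 3161 and 730 for S minus G1, G2M minus G1 and G2M minus S, against 2100, 3183 and 784, and no call of a member changed. DESeq2 called 668, 1057 and 173 genes, and the fit on cells thinned to 2000 UMIs 832, 1189 and 249. With 1 flask left out no residual degrees of freedom remained, so no phase test was possible. The log2 ratios of CPM then ran from -1.18 to -0.75 for VIM in G2M and from -0.91 to -0.87 in S. They ran from -1.9995 to -1.12 and from -1.58 to -1.43 for PRPH, and from 0.37 to 0.52 and from 0.42 to 0.68 for NES. These ratios lack the normalization factors of the fits, so they are not on the scale of the fitted changes.

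The mean log2 ratio of neuronal filaments to VIM was -0.07, moved to -0.34 per kilobase, and ran from -0.25 to 0.11 with either flask left out. The mean share of cells with VIM was 18.0%, 10.4% at 1000 UMIs and 28.7% at 4000 UMIs, and 15.9% to 20.03% with a flask left out. The mean difference in VIM share by neuronal filament detection, -1.60 points, became 1.30 at 1000 UMIs, -5.15 with the filters of the study's code and 0.928 without the 5% of cells with most UMIs, and ran from -3.22 to 0.0123 over flasks, so it has no stable sign. For NES the mean difference by neuronal filament detection was 1.36 points, and the mean over flasks stayed positive in every alternative. This mean ran from 1.15 in G1 cells alone to 7.49 with a minimum of 300 genes, so its size was not stable. With the hashtag limit of 100 it was 2.37 with an SD over flasks of 5.36, so the sign did not hold in each flask. The variance-to-mean ratio of VIM rose from 1.48 to 1.86 at 4000 UMIs and was 1.44 to 1.52 over flasks. Of the 3 genes most like VIM, 2 were shared with ranks and 2 with each flask left out. NEFH and, after thinning, PRPH had too few UMIs for the phase test.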
